A study of Mus musculus with 8 samples.

Results

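Myosin heavy chains are the motor subunits of the thick filament, and their isoform sets how fast a muscle fibre shortens and how much ATP it spends. In the limb muscles of adult mice the fast fibres use Myh4 (type IIb, the fastest and most glycolytic), Myh1 (type IIx) or Myh2 (type IIa, fast and rich in mitochondria), while Myh3 (embryonic) and Myh8 (perinatal) belong to developing and regenerating fibres. The tibialis anterior (TA) of the lower hind limb is a fast muscle of mice in which type IIb and IIx fibres prevail. Of 10 listed heavy chain genes, matched by gene symbol, 9 were in the deposited table of 23930 targets, and all 9 were among the 11004 targets tested. These were Myh4, Myh1, Myh2, Myh8, Myh3, Myh13, Myh6, Myh7b and Myh14. Myh7, the heavy chain of slow fibres, was not analysed here.

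The KO group held 4 libraries from mice with an inducible skeletal muscle Cre (HSA-Cre, driven by a skeletal muscle actin promoter) and loxP sites in Sdhc, which encodes a membrane anchor of succinate dehydrogenase. The WT group held 4 libraries from littermates that carried HSA-Cre without loxP sites (HSA-Cre/No Lox). All were C57/B6 mice by their growth protocol, although the number after C57BL differs between the KO genotype labels, and all were given tamoxifen at 12 weeks of age, and TA muscle was taken 3 weeks later, so that Cre and tamoxifen were shared by both groups and only cells that express the actin promoter could lose Sdhc. The series asks what the loss of complex II does to muscle respiration, fatigue and mass, and the question for the heavy chains is whether the fibre type signature of the muscle differed at this time.

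Each gene was read through 1 amplicon of the Ion AmpliSeq Transcriptome Mouse panel, and its value is in RPM, the reads of the target scaled to a common total of reads on all targets. The libraries held 5983175 to 9119006 reads. Sdhc stood at 16.9 to 54.3 RPM in KO and 737 to 853 RPM in WT libraries, so no library went against its label. All 8 skeletal muscle fibre markers (among them Ckm, Acta1 and Pvalb) were abundant, with a summed level of 101267 to 133775 RPM in KO and 95230 to 132480 RPM in WT libraries. By Xist and 4 Y-linked genes, replicates 2 and 4 of each group were female and replicates 1 and 3 male. In 9 bone genes the libraries were apart, with a sum of 146 to 375 RPM in KO libraries and of 3767, 941, 408 and 6318 RPM in WT1 to WT4, and none of the 9 was at 0 throughout. Of the 7 bone genes tested, 0 passed between KO and WT in limma or edgeR, 5 passed in DESeq2 and 6 had an unadjusted p under 0.05, all lower in KO. Among all 11004 genes tested, 3 passed in limma, 1 in edgeR and 149 in DESeq2. At an unadjusted p under 0.05 (limma) there were 1015 of all genes, 942 of them lower in KO. Since WT1 and WT4 had the highest sums, results were also computed without them.

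Of the 9 genes, 6 lie side by side on the plus strand of chromosome 11 (GRCm38, GENCODE vM21), in the order Myh3, Myh2, Myh1, Myh4, Myh8 and Myh13, over 293287 bases. Myh2 (67171027 to 67197517), Myh1 (67200052 to 67224575) and Myh4 (67238029 to 67260446) are direct neighbours, with 2534 bases between Myh2 and Myh1 and 13453 bases between Myh1 and Myh4. Myh6 lies on chromosome 14, Myh7b on chromosome 2 and Myh14 on chromosome 7. The promoters of the 3 adult fast genes and of Myh8 are shown because these 4 genes carry the comparisons that follow. Each runs from 250 bases before to 50 bases after the RefSeq start (GRCm38.p6, plus strand; for Myh4 and Myh1 this start is not the GENCODE one), 5′ to 3′, and capitals mark matches on either strand to the E-box (CANNTG, the site of MyoD and other bHLH factors), the TATA box (TATAAA), the MEF2 motif or the CArG box of serum response factor.
Myh4, chr11:67237562-67237861: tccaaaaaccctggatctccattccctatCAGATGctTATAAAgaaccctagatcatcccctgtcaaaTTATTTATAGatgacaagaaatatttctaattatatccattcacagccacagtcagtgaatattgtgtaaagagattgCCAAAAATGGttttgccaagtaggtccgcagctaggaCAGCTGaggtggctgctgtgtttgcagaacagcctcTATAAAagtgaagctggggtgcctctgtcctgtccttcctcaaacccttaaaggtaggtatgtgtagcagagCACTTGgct
Myh1, chr11:67199852-67200151: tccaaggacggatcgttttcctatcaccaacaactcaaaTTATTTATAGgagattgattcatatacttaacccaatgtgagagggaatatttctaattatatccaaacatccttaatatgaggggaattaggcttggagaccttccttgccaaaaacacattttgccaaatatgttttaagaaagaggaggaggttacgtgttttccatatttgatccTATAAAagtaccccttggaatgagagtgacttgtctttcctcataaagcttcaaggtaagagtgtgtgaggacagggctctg
Myh2, chr11:67170777-67171076: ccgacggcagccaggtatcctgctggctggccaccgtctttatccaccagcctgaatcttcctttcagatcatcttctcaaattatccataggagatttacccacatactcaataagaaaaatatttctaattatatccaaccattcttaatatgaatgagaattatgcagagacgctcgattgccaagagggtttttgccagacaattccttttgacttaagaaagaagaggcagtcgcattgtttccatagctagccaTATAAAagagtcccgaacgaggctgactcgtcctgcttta
Myh8, chr11:67276874-67277173: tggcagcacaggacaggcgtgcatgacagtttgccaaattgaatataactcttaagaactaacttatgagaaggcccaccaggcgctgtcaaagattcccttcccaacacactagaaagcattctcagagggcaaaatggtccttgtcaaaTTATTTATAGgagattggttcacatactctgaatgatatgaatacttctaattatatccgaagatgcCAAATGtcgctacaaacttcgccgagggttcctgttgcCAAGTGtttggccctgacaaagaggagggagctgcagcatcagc
Myh4, Myh1 and Myh8 hold the same MEF2 match, TTATTTATAG, which is also overlapped by a reverse TATA match, and no MEF2 match was found in the Myh2 window. Among 32851 RefSeq promoters of 300 bases, 3.19% hold a MEF2 match. Myh4 alone of the 4 held a CArG match (1.63% of promoters) and 3 E-boxes, where 17.6% of promoters hold 3 or more. Myh8 held 2 E-boxes, and in the windows of Myh1 and Myh2 no E-box was found, whereas 72.3% of promoters hold at least 1. A TATAAA on the coding strand lay 31 bases before the RefSeq start in Myh4 and 32 before it in Myh1, and 10 bases after it in Myh2, and 13.6% of promoters hold the box. These matches describe the letters of the windows only.

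The coding sequences of these genes are near copies of each other, which bears on how far their amplicons can be told apart. Aligned coding bases were 90.3% identical between Myh4 and Myh1, 91.1% between Myh1 and Myh2 and 88.2% between Myh4 and Myh2 (GENCODE vM21). Of all 30-base windows of the Myh1 coding sequence, 20.7% also occur in Myh4 and 29.9% in Myh2. The longest stretch shared by Myh1 and Myh4 is 161 bases of coding sequence, from position 3250 of the Myh1 and 3241 of the Myh4 coding sequence, and is shown because a read that lies within it fits either gene. The stretch, 5′ to 3′:
Myh1 and Myh4: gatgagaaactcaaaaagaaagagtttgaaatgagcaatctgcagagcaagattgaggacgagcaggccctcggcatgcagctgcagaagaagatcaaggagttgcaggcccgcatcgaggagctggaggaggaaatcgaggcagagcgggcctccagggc
Myh14, a non-muscle heavy chain, shared 61.3 to 63.9% of aligned bases with the other 8 genes and 0 windows of 30 bases. The positions of the amplicons, and how reads that fit several genes were counted, were not stated in any source used here, so levels of the 6 cluster genes are uncertain by any reads so shared. The low levels of Myh6 and Myh7b are too, since Myh6 shared 45 windows of 30 bases with Myh4 and 30 with Myh1, and Myh7b shared 4 with Myh4 and 10 with Myh1.

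Myh4 and Myh1 made up nearly the whole summed signal of the 9 heavy chain genes in both genotypes. Over the 8 libraries Myh4 averaged 22125 ± 4497 RPM and Myh1 17352 ± 3005 RPM (SD, n = 8), and by level Myh4 ranked 2 to 7 and Myh1 3 to 9 among all targets of a library. Below them came Myh2 with 446 ± 186 RPM, Myh8 with 83.9 ± 13.7 RPM, Myh14 with 34.9 ± 4.36 RPM, Myh13 with 7.68 ± 3.37 RPM, Myh6 with 3.17 ± 0.649 RPM, Myh7b with 2.37 ± 0.930 RPM and Myh3 with 1.06 ± 0.575 RPM (SD, n = 8 each). The order held in all 8 libraries for each pair of neighbours from Myh1 to Myh6. Myh4 lay above Myh1 in 6 of 8 libraries, all but KO2 and WT2, Myh6 lay above Myh7b in 6 of 8, and Myh7b above Myh3 in 7 of 8, so these neighbours were not separated beyond the spread of the libraries. Since amplicons differ in how well they amplify, this is an order of amplicon signal and not of transcript molecules, and a difference in length between genes does not enter it.

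**Figure D1:**
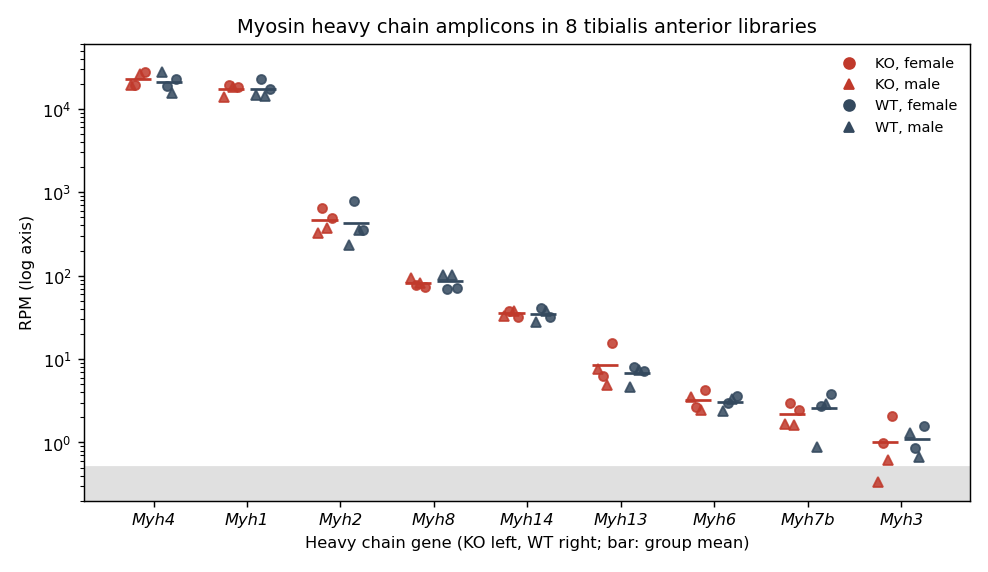
RPM of the 9 heavy chain amplicons (log axis) in each library, with KO libraries on the left and WT libraries on the right of each gene, circles for females, triangles for males and a bar at the group mean. The grey band ends at 0.501 RPM, the value of 3 reads in the shallowest library, and the KO and WT points overlap for each gene.

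None of the 9 heavy chain genes passed the test between KO and WT. In limma on log2(RPM + 1), with Benjamini-Hochberg (BH) adjustment over 11004 genes, 0 of 9 were called, where 0.0273% of all genes were. At an unadjusted p under 0.05 there were also 0 of 9, against 9.22% of all genes, and edgeR and DESeq2 on recovered reads called 0 of 9 each. The log2 fold changes of the 9 genes, KO over WT, ran from -0.12 to 0.19 with a median of 0.04, beside a median of -0.05 over all genes tested, and 6 were above 0. KO and WT libraries overlapped in all 9 genes, while 5.1% of all genes did not overlap (0.536% with all KO libraries above and 4.56% with all KO libraries below). The adjusted p of the 9 genes was 0.923 to 0.985. A p that misses the threshold does not show equal levels, so the 95% interval of each difference is given with it. In bulk muscle, fewer cells of a type and less RNA per cell cannot be told apart.

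Myh4, the type IIb heavy chain, stood at 19254, 19212, 26122 and 27402 RPM in KO1 to KO4, against 27477, 18905, 15696 and 22931 RPM in WT libraries 1 to 4. High and low libraries occurred in both groups, and the highest and the lowest of the 8 were both WT. The means were 22997 ± 4378 RPM in KO and 21252 ± 5098 RPM in WT (SD, n = 4 each). The log2 fold change was 0.13, with an interval from -0.31 to 0.56, which covers folds of 0.809 to 1.47. Without WT1 and WT4 the log2 fold change was 0.40, and without WT3, the lowest library, it was -0.0098; neither passed. Among the WT libraries, the pair with the highest bone sums, WT1 and WT4, also held the most Myh4, and the part of these markers in the result was not tested.

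Myh1, the type IIx heavy chain, stood at 13881, 19482, 18137 and 18415 RPM in KO1 to KO4, against 14706, 22562, 14079 and 17553 RPM in WT libraries 1 to 4. KO1 was low beside the other KO libraries and WT2 was the highest of all. The means were 17479 ± 2467 RPM in KO and 17225 ± 3866 RPM in WT (SD, n = 4 each). The log2 fold change was 0.03, with an interval from -0.36 to 0.43, or folds of 0.781 to 1.34. Its sign turned to -0.04 without WT1 and WT4, and also without KO2, WT1 or WT3 alone, where the lowest value was -0.05 (without WT3).

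Myh2, the type IIa heavy chain, stood at 324, 657, 371 and 493 RPM in KO1 to KO4, against 235, 782, 353 and 354 RPM in WT libraries 1 to 4. It was the most variable of the 3 adult fast genes, with a highest library 2.03 times the lowest in KO and 3.33 times in WT, on 1939 to 5478 reads. The means were 461 ± 148 RPM in KO and 431 ± 241 RPM in WT (SD, n = 4 each). The log2 fold change was 0.19, with an interval from -0.47 to 0.85. Folds of 0.722 to 1.80 thus lie within the interval. The value rested on single libraries. It was 0.52 without WT2 (interval 0.03 to 1.02; limma with BH, adjusted p = 0.483), 0.0021 without KO2, -0.05 without WT1 and -0.24 without WT1 and WT4.

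**Figure D2:**
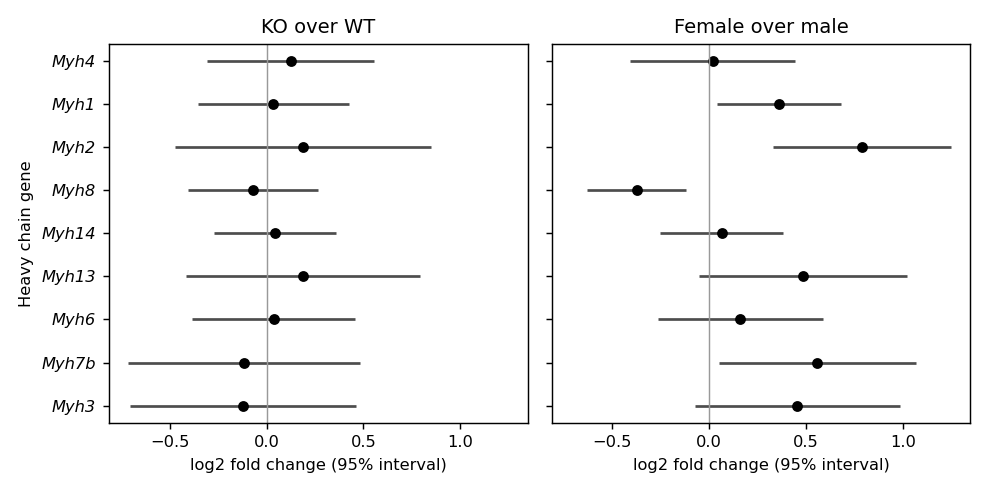
Log2 fold changes of log2(RPM + 1) with 95% intervals for the 9 heavy chain genes, on the left KO over WT and on the right female over male from a fit with genotype and sex. All 9 intervals on the left contain 0, and those of Myh1, Myh2, Myh7b and Myh8 on the right do not.

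The heavy chains expressed before birth and in regenerating fibres stood below the adult fast chains in both groups. By level Myh8 ranked 1203 to 1837 and Myh3 9543 to 12048 among all targets of a library. Myh8, the perinatal chain, stood at 94.1, 76.9, 81.2 and 73.2 RPM in KO1 to KO4, against 103, 69.8, 101 and 71.3 RPM in WT libraries 1 to 4. The groups overlapped, and the log2 fold change was -0.07 (interval -0.41 to 0.27), with a positive sign, of up to 0.02, without WT1 or WT3. Myh3, the embryonic chain, rested on 2 to 18 reads per library and stood at 0.334, 0.984, 0.619 and 2.08 RPM in KO1 to KO4, against 1.32, 0.857, 0.665 and 1.58 RPM in WT libraries 1 to 4. KO1 lay below the level of 3 reads, and the other 7 libraries lay above it. The log2 fold change was -0.12 (interval -0.71 to 0.46), or 0.05 without KO1, on a scale that understates changes of genes near 1 RPM. With a pseudocount of 0.1 RPM in place of 1 it was -0.31, and with 5 RPM it was -0.03. Markers of satellite cells and regenerating fibres, of which 5 were in the table (Pax7, Myf5, Myod1, Myog and Ncam1), summed to 24.8 to 38.4 RPM in KO and 31.8 to 41.7 RPM in WT libraries. Of these 0 of 5 passed in limma (0.0273% of all genes), edgeR or DESeq2 or at an unadjusted p under 0.05 (9.22% of all genes).

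Heavy chains known from other muscles were low. Myh13, the superfast chain of eye and laryngeal muscles, stood at 7.52, 6.33, 4.83 and 15.4 RPM in KO1 to KO4, against 4.61, 8.14, 7.45 and 7.19 RPM in WT libraries 1 to 4. KO4, with 133 reads, was the highest, and the log2 fold change of 0.19 (interval -0.42 to 0.79) turned to -0.11 without it and was 0.40 by edgeR and by DESeq2 on recovered reads. Myh6, the alpha chain of the heart, averaged 3.23 ± 0.830 RPM in KO and 3.10 ± 0.530 RPM in WT (SD, n = 4 each; interval of the log2 fold change -0.39 to 0.46), on 19 to 37 reads, and its sign turned without KO1, KO4 or WT1. Of 7 heart markers, Nppb, Myl7 and Myl4 were below 3 reads in all libraries, Myl7 at 0 in each, and the sum of the 7 was 3.96 to 6.02 RPM in KO and 4.92 to 6.95 RPM in WT libraries. Myh7b, a slow-type chain whose gene hosts a microRNA, averaged 2.17 ± 0.644 RPM in KO and 2.57 ± 1.22 RPM in WT (SD, n = 4 each; interval -0.72 to 0.48), on 8 to 31 reads. WT1 held the least Myh7b (0.877 RPM) and WT4 the most (3.78 RPM), and the log2 fold change of -0.12 became 0.05 without WT4.

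Myh14 encodes a heavy chain of non-muscle myosin II and shares with the others the motor but not the sarcomere. It stood at 32.9, 38.1, 38.1 and 32.1 RPM in KO1 to KO4, against 28.0, 40.9, 37.4 and 31.7 RPM in WT libraries 1 to 4. It was the steadiest of the 9 genes, with the highest library 1.46 times the lowest, and the log2 fold change was 0.04 (interval -0.27 to 0.36), or -0.05 without WT1. The other class II chains outside the sarcomere, Myh9 and Myh10 of non-muscle cells and Myh11 of smooth muscle, had values of -0.20, -0.04 and -0.11. Of these 0 of 3 passed in limma (0.0273% of all genes), edgeR or DESeq2 or at an unadjusted p under 0.05 (9.22% of all genes).

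As shares of the summed heavy chain RPM, Myh4, Myh1 and Myh2 differed between KO and WT means by less than the SD within either group. The sum covers the 9 genes and leaves out Myh7, Myh9, Myh10 and Myh11. It was 33600, 39478, 44759 and 46440 RPM in KO1 to KO4 and 42559, 42375, 30281 and 40957 RPM in WT1 to WT4, or 3.03 to 4.64% of all reads. Myh4 took 57.3, 48.7, 58.4 and 59.0% of it in KO1 to KO4 and 64.6, 44.6, 51.8 and 56.0% in WT1 to WT4. The mean share of Myh4 was 55.8 ± 4.83% in KO and 54.2 ± 8.33% in WT (SD, n = 4 each), and an exact two-sided permutation test over the 8 libraries gave p = 0.829. The difference, 1.58 percentage points, was -1.63 without WT2, the library with the lowest Myh4 share. Myh1 took 42.7 ± 4.48% in KO and 44.3 ± 7.79% in WT (SD, n = 4 each; exact permutation p = 0.743). Myh2 took 1.13 ± 0.368% in KO and 1.11 ± 0.553% in WT (SD, n = 4 each; exact permutation p = 0.971). Since Myh4 and Myh1 together held 97.9 to 99.1% of the signal, a higher share of one went with a lower share of the other in each library by construction. The 95% Wilson interval of a single library's share was at most 0.432 percentage points wide for Myh4, so the spread between libraries far exceeded counting error. Each of the 9 shares was tested, with p of 0.486 to 0.971 before any adjustment, where 4 against 4 libraries allow no p under 0.0286, and KO and WT libraries overlapped in all 9.

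**Figure D3:**
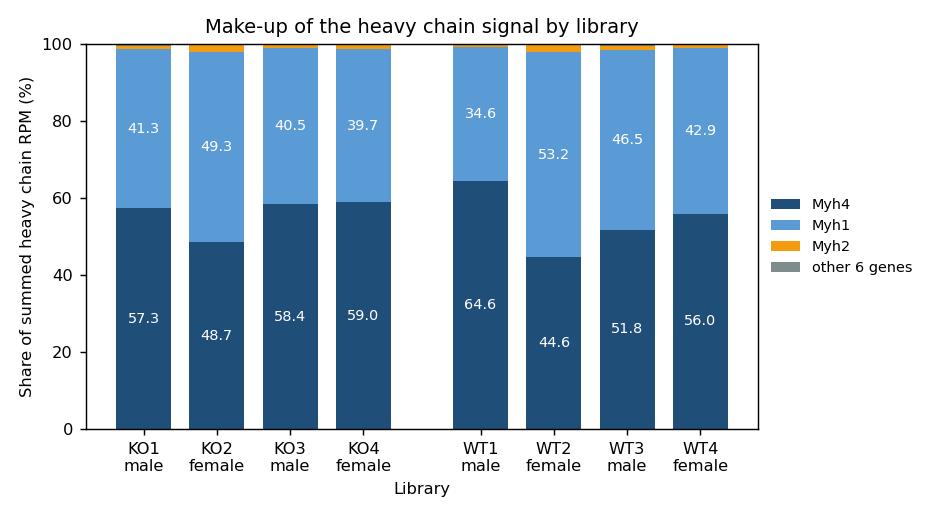
Share of the summed heavy chain RPM (percent, bars from 0 to 100) taken by Myh4, Myh1, Myh2 and the other 6 genes in each library, KO on the left and WT on the right, with the percentages of Myh4 and Myh1 printed. Myh4 runs from 48.7 to 59.0% in KO and from 44.6 to 64.6% in WT libraries.

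Within the KO group 1 library had a different balance of the adult fast chains. In KO2 Myh4 and Myh1 were nearly level, with 0.986 RPM of Myh4 per RPM of Myh1, against 1.39, 1.44 and 1.49 in KO1, KO3 and KO4. Among the WT libraries this ratio was 1.87, 0.838, 1.11 and 1.31 in WT1 to WT4. The share of Myh2 was 0.965, 1.66, 0.830 and 1.06% in KO1 to KO4 and 0.552, 1.85, 1.17 and 0.865% in WT1 to WT4. KO2 and WT2 thus had the lowest Myh4 to Myh1 ratio and the highest Myh2 share in their groups.

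No heavy chain passed the threshold between females and males, although 4 of them had an unadjusted p under 0.05. In a limma fit with genotype and sex terms, 66 of 11004 genes differed between females and males at a BH adjusted p under 0.05 (0.6%), and 0 of 9 heavy chains did, nor did any by edgeR. At an unadjusted p under 0.05 there were 4 of 9 heavy chains, Myh2, Myh8, Myh1 and Myh7b, against 10% of all genes. Myh2 averaged 572 ± 187 RPM in females and 321 ± 60.4 RPM in males (SD, n = 4 each), or 0.79 on the log2 scale (interval 0.33 to 1.25, limma with BH, adjusted p = 0.153). Myh1 averaged 19503 ± 2187 RPM in females and 15201 ± 1989 RPM in males (0.36, interval 0.04 to 0.68, limma with BH, adjusted p = 0.430). Myh8 stood at 69.8 to 76.9 RPM in females and 81.2 to 103 RPM in males, without overlap (log2 fold change -0.37, interval -0.63 to -0.12, limma with BH, adjusted p = 0.258). Myh7b averaged 2.97 ± 0.580 RPM in females and 1.77 ± 0.851 RPM in males (0.56, interval 0.05 to 1.07, limma with BH, adjusted p = 0.449). Myh4 averaged 22112 ± 3973 RPM in females and 22137 ± 5603 RPM in males (0.02, interval -0.41 to 0.44). The Myh2 difference passed the threshold only when WT4, the female with the least Myh2, was left out (limma with BH, adjusted p = 0.0262), and over all alternatives its adjusted p was 0.0262 to 0.385. With 1 library left out, Myh2 and Myh8 kept an unadjusted p under 0.05 (limma) each time. Myh1 did not keep it without KO1, KO2, WT1, WT2 or WT3. Myh7b, on 8 to 31 reads, did not keep it without KO2, KO3, WT1 or WT4, and its log2 fold change was 0.33 without WT1.

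Counted within genotypes, both females lay above both males in KO and in WT for Myh1 and Myh2, and below them for Myh8. Such separation within both genotypes held for 3 of the 9 heavy chains and for 9.31% of all genes (2 above, against 4.29% of all genes, and 1 below, against 5.02%). For Myh2 it was narrow in WT, where WT4 (354 RPM) barely exceeded WT3 (353 RPM). Only Myh8 separated all 4 females from all 4 males, as did 5.26% of all genes (2.23% with females above and 3.04% with females below). The effect of genotype was set against sex by an interaction term, for which 4 of 11004 genes passed (0.0364%) and 0 of 9 heavy chains, with 0 of 9 also at an unadjusted p under 0.05 (limma) against 4.66% of all genes. Myh8 had log2 fold changes, KO over WT, of 0.09 in females and -0.23 in males, Myh1 of -0.07 and 0.14, Myh2 of 0.11 and 0.27, and Myh4 of 0.14 and 0.11, with the female value first and 2 libraries of each sex and genotype.

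**Figure D4:**
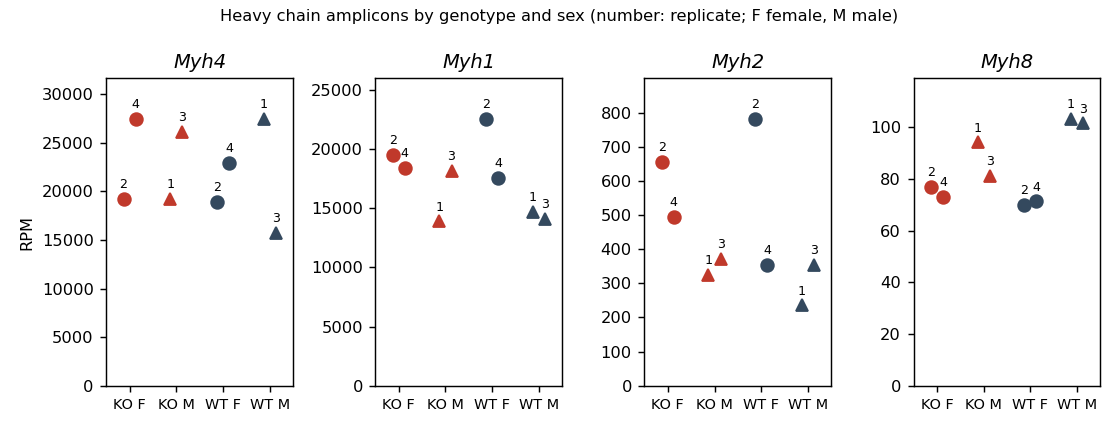
RPM (axes from 0) of Myh4, Myh1, Myh2 and Myh8 by genotype and sex, 1 point per library with its replicate number. Females lie above males within KO and within WT for Myh1 and Myh2 and below them for Myh8, and the 4 combinations overlap for Myh4.

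The genes whose levels followed each adult fast chain most closely over the 8 libraries were named by rule, as the 5 with the highest Pearson r of log2(RPM + 1) among 6696 genes with a mean of at least 10 RPM. Such a choice of the highest among many genes gives large r by itself, and the 8 libraries share their depth and scaling with the gene they are compared to. For Myh4 these were Pvalb, the calcium buffer of fast fibres (r = 0.95), Tnnt3, fast troponin T (0.92), Mylpf, the fast regulatory light chain (0.92), Ss18l1 (0.91) and Gatad1 (0.89). For Myh1 they were Nr1h2, a sterol-sensing nuclear receptor (r = 0.95), Nod1 (0.94), Dhrs3 (0.93), Tnik (0.92) and Gpt, alanine aminotransferase (0.91). For Myh2 they were Klhl34 (r = 0.99), Myoz2, a Z-disc protein of slow fibres (0.96), 2010107E04Rik (0.95), Acaa2, a thiolase of mitochondrial fat oxidation (0.95) and Dgat2, an enzyme of triglyceride synthesis (0.95). Myoz2 stood at 87.7, 178, 81.4 and 160 RPM in KO1 to KO4, against 58.2, 180, 86.4 and 94.1 RPM in WT libraries 1 to 4, so its 2 highest libraries, WT2 and KO2, were those of Myh2. The same 5 libraries, in the order WT2, KO2, KO4, KO3 and WT4, led in both Myh1 and Myh2, and the 3 libraries with the least Myh1 (KO1, WT3 and WT1) held the most Myh8. Libraries rich in Myh4 were also those in which the 10 most abundant targets took the most reads, with 25.5, 24.2 and 24.1% in KO4, KO3 and WT1 against 17.7% in WT3. Myh4 is itself among these targets.

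**Figure D5:**
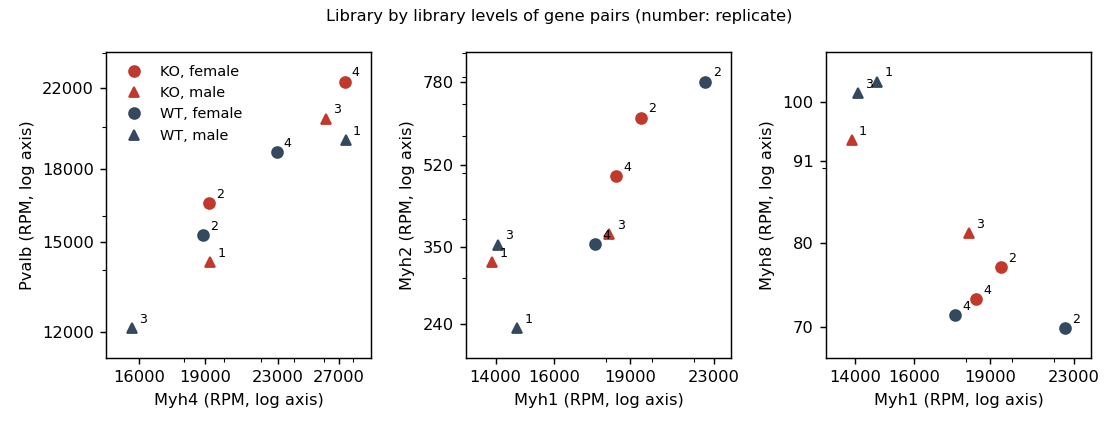
RPM (log axes) of Pvalb against Myh4, of Myh2 against Myh1 and of Myh8 against Myh1, 1 point per library with its replicate number, KO in red and WT in dark blue, circles for females and triangles for males. Pvalb is high where Myh4 is high, WT2 and KO2 are the highest in both Myh1 and Myh2, and KO1, WT1 and WT3 hold the least Myh1 and the most Myh8.

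Partners of the heavy chains in the thick filament did not pass between genotypes either. Of 11 listed thick filament and M-band genes 9 were tested, and their median log2 fold change was 0.04, with 7 above 0. None of the 9 passed in limma (0.0273% of all genes), edgeR or DESeq2 or at an unadjusted p under 0.05 (9.22% of all genes). Mybpc1, the slow-type myosin binding protein C, averaged 2207 ± 465 RPM in KO and 2457 ± 397 RPM in WT, Ttn, the titin spring, 4072 ± 391 and 3741 ± 242 RPM in KO and WT, and Myom3, an M-band myomesin, 9.16 ± 4.69 and 15.5 ± 12.6 RPM in KO and WT (SD, n = 4 each). Between the sexes 4 of the 9 had an unadjusted p under 0.05, against 10% of all genes, and 1 passed, where 0.6% of all genes did. This was Myom3, higher in females with a log2 fold change of 1.58 (limma with BH, adjusted p = 0.00424). Mybpc3 and Mybphl, known from the heart, were below 3 reads in all libraries. Of 5 genes of myosin folding and turnover 0 passed in limma (0.0273% of all genes), edgeR or DESeq2 or at an unadjusted p under 0.05 (9.22% of all genes), with 4 below 0. Unc45b, the myosin chaperone, averaged 543 ± 58.5 RPM in KO and 452 ± 92.1 RPM in WT (SD, n = 4 each; log2 fold change 0.28, interval -0.04 to 0.60).

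Among 26 regulators of fibre type 0 passed in limma (0.0273% of all genes), edgeR or DESeq2, 15 were above 0, and the median log2 fold change was 0.01. At an unadjusted p under 0.05 there was 1 of 26, a smaller share than the 9.22% of all genes. It was Nfatc4, a calcineurin-dependent factor, which stood at 4.35, 6.75, 3.46 and 3.94 RPM in KO1 to KO4, against 7.68, 8.43, 6.39 and 16.2 RPM in WT libraries 1 to 4 (limma with BH, adjusted p = 0.203). Its highest library, WT4, was also the one with the highest bone sum, and the part of bone markers in this value was not tested. Ppp3ca, a catalytic subunit of calcineurin, stood at 339, 357, 308 and 335 RPM in KO1 to KO4, against 256, 306, 306 and 282 RPM in WT libraries 1 to 4. All KO libraries lay above all WT libraries, as for 0.536% of all genes, but KO3 (308 RPM) barely exceeded WT2 and WT3 (306 RPM each). The log2 fold change of Ppp3ca was 0.22 (limma with BH, adjusted p = 0.605). Tbx15, a factor of glycolytic fibres, averaged 324 ± 20.1 RPM in KO and 271 ± 69.3 RPM in WT (SD, n = 4 each). Nfatc2 stood at 9.19 to 11.9 RPM in KO and 12.0 to 15.7 RPM in WT libraries (log2 fold change -0.31, limma with BH, adjusted p = 0.567). All KO libraries thus lay below all WT libraries, narrowly, as for 4.56% of all genes. Apart from Ppp3ca and Nfatc2 the listed regulators overlapped between KO and WT, where 5.1% of all genes did not.

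As Myh7 was not analysed here, slow fibres could be followed only through other genes. The 8 slow fibre markers in the table summed to 328, 704, 400 and 1044 RPM in KO1 to KO4 and to 250, 502, 285 and 441 RPM in WT1 to WT4. All 8 had log2 fold changes above 0, where 4488 of 11004 genes did, with a median of 0.94 beside -0.05 over all genes. The lowest was 0.02, for Casq2. KO4 was the highest of the 8 libraries in Myl2, Myl3, Tnnt1, Tnni1, Tnnc1 and Atp2a2, and WT2 in Casq2 and Myoz2. Tnnt1 stood at 2.84, 7.45, 1.11 and 21.3 RPM in KO1 to KO4, against 0.987, 3.00, 1.46 and 2.19 RPM in WT libraries 1 to 4. The part of KO4 in the values of these markers was not tested. None of the 8 passed in limma (0.0273% of all genes did), edgeR or DESeq2. At an unadjusted p under 0.05 there were 3 of 8, Myl2, Tnnc1 and Atp2a2 (9.22% of all genes). The females of each group held the highest sums, and between the sexes all 8 had an unadjusted p under 0.05 (10% of all genes), with 1, Myoz2, past the threshold (limma with BH, adjusted p = 0.0424, with 0.6% of all genes called). Within each sex both KO sums lay above both WT sums, but of the single markers Myl2 alone did so in both sexes. In males Myl3, Tnnt1, Tnni1, Tnnc1, Atp2a2 and Myoz2 overlapped between KO and WT. In females Casq2 was lower in KO2 and KO4 (26.2 and 20.3 RPM) than in WT2 and WT4 (28.3 and 28.1 RPM). The share of all genes with such separation was not computed. In a fit with a sex term, added after seeing the data, 0 of 8 passed between KO and WT (0.0364% of all genes did) and 5 of 8 had an unadjusted p under 0.05 (10.3% of all genes). The fast chain Myh2 was highest in WT2 and KO2, whereas the slow sum was highest in KO4.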

How the data were processed

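Per the authors' deposited table, values are in RPM (reads on a target scaled to a common total), with 1 column per library, assigned through the barcodes that the labels give. Per the submitters' processing notes, Transcriptome Analysis Console was used. No source used here names the aligner, the genome build or the rule for counting reads. Reads were recovered from the RPM steps, and 100% of values came within 0.1 of a whole read. Intervals from reads cover counting error only.

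Groups were compared on log2(RPM + 1) in targets that averaged 1 RPM or more. The test was limma 3.58.1 (R 4.3.3, intensity trend, two-sided, BH over 11004 genes, threshold 0.05). Sex came from Xist and Y-linked genes, since the labels give none. edgeR 4.0.16 and DESeq2 1.42.0 were run on recovered reads. Libraries of a group all differed beyond sampling noise, with a chi-square per degree of freedom of at least 13.4. Shares were compared by exact permutation of libraries. Alternatives were other pseudocounts, filters and scalings, a replicate block, a sex term, each sex alone and each library left out. Members, gene lists and the rules for named genes (all members, up to 4 genes of each list by smallest p, and the 5 genes nearest to each adult fast chain) were chosen with earlier results of these data known, and other genes named were chosen after their values were seen. The labels do not say whether each library is a mouse of its own, so p-values measure the spread between these samples. The values of 1 gene that the rule names are not reported here.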

Additional observations from a re-analysis of the deposited data

Results flagged for a closer look

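Among the KO libraries the share of Myh4 in the summed heavy chain RPM was 48.7% in KO2 and 57.3 to 59.0% in KO1, KO3 and KO4. The gap of KO2 to the nearest library took up 0.836 of the group's range, above Dixon's 95% critical value for 4 samples. In all, 36 groups of 4 values were examined and 1 was marked in this way, and chance marks about 1 in 20 groups. Without KO2 the difference in the Myh4 share, KO minus WT, was 3.97 percentage points, against 1.58 with all libraries.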

How the results depend on the processing

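None of the 9 heavy chain genes passed the threshold between KO and WT under any alternative run, with adjusted p of 0.483 to 1, and none of the 9 shares did, with exact p of 0.0857 to 1, although no share could pass with the block or with WT1 and WT4 left out, where the arrangements are too few. Signs were not stable. With females only the log2 fold change was -0.071 for Myh1, 0.18 for Myh3, 0.087 for Myh8 and -0.040 for Myh14. With WT1 and WT4 left out, a choice made after seeing the data, it was -0.040 for Myh1, -0.24 for Myh2, -0.00039 for Myh13 and -0.15 for Myh14, and the differences in share, KO minus WT in percentage points, were -0.376 for Myh2, 0.000229 for Myh3 and -0.00133 for Myh13. Leaving out 1 library at a time, the log2 fold change ranged from -0.054 to 0.17 for Myh1, -0.053 to 0.52 for Myh2, -0.23 to 0.050 for Myh3, -0.0098 to 0.26 for Myh4, -0.077 to 0.12 for Myh6, -0.40 to 0.049 for Myh7b, -0.16 to 0.024 for Myh8, -0.11 to 0.39 for Myh13 and -0.049 to 0.13 for Myh14. The share difference then ranged from -4.82 to 1.41 points for Myh1, -0.163 to 0.269 for Myh2, -1.63 to 5.02 for Myh4, -0.00101 to 0.000767 for Myh6, -0.0512 to 0.00960 for Myh8, -0.00165 to 0.00580 for Myh13 and -0.0119 to 0.00737 for Myh14, and the values for Myh4 and Myh1 turned sign without WT2. The number of genes called between KO and WT, 3 with all libraries, was 6 with no filter, 1 with TMM or median-ratio scaling, 1 by edgeR, 149 by DESeq2, 1 with the replicate block, 1 in females only, 33 in males only, 1 with WT1 and WT4 left out, and 1 to 130 with 1 library left out (130 without WT3, 10 without KO1, 1 without any other). Leaving out 1 library gave 34 to 75 genes for sex and 0 to 7 for the interaction. For sex, the Myh4 value was -0.013 by edgeR and ranged from -0.14 to 0.18 with 1 library left out, and that of Myh14 from -0.033 to 0.13. For the interaction the value of Myh6 was 0.022 with TMM scaling and 0.057 by edgeR, and with 1 library left out the values ranged from -0.73 to 0.42 for Myh2, -0.37 to 0.43 for Myh4, -0.28 to 0.25 for Myh6, -0.69 to 0.38 for Myh7b, -0.27 to 0.89 for Myh13 and -0.37 to 0.036 for Myh14. The cause of these turns was not tested.

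The labels do not say that a replicate number pairs libraries. Same-numbered libraries were of the same sex, so that the block also takes up sex, and their deviations from the group means correlated at 0.105 to 0.257 for 3 of the 4 numbers and at 0.0034 for replicate 1. Differently numbered KO and WT libraries of the same sex correlated at 0.135 (KO2 with WT4) to 0.279 (KO3 with WT1), so these values do not mark out a pairing by number. With the block, permutation within pairs left the Myh4 share at 1.58 points and no call for a heavy chain changed. Another scaling or tool moved several small log2 fold changes by over 1.5 times, among them Myh6 (0.13 by edgeR and DESeq2, against 0.04) and Myh1 (0.095 with TMM, against 0.03), and that of Myh8 was -0.0092 with TMM scaling. With 4 libraries a group, the intervals of the adult fast chains allow changes of up to 1.34-fold (Myh1) to 1.80-fold (Myh2). Myh3, Myh6 and Myh7b rest on 2 to 37 reads. A filter at a mean of 10 RPM left no value for these genes and Myh13, nor did males alone for Myh3.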
